A study of Mus musculus with 9 samples.

Results

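The sarcomere is the contractile unit of heart muscle, and 36 genes for its filaments, Z-discs and M-bands are described here over 9 libraries of mouse heart RNA. The members were a fixed list of symbols: the cardiac and skeletal isoforms of troponin and tropomyosin, titin and the myosin binding proteins C, and the proteins of the Z-disc, the M-band and the thin filament ends. Each symbol was matched to 1 Ensembl gene of the count table, which holds 55401 genes. All 36 had enough counts to be tested. The hearts came from C57BL/6 mice, an inbred strain, and the treatment labels divide the libraries into 3 groups of 3. Ctrl mice had received PBS, a salt buffer. AngII mice had received Ang II, the blood pressure hormone angiotensin II, and so had Kmo_AngII mice, whose group is written Kmo+Ang II. What Kmo stands for is not given in the sources used here, and neither are the dose, the duration or the age of the mice. The series concerns the deubiquitinase JOSD2 and the calcium pump SERCA2a in cardiac hypertrophy.

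The titles carry a second grouping, by the unexplained letters WC, WA and KKA, which crosses the treatment labels. Whether a title or a treatment label is misassigned in any library cannot be told from the labels, so each treatment comparison is one of libraries as labelled. WC stands on Ctrl 1, AngII 1 and AngII 2, and WA stands on Ctrl 2, Ctrl 3 and AngII 3. KKA stands on the 3 Kmo_AngII libraries, so the 2 groupings share that group. Values of a group are always given below in that order of libraries, where the number after a label is its replicate. The replicate numbers follow the order of the samples and pair nothing. The labels do not say that libraries came from separate animals, so p-values measure the spread between these libraries, which may be technical.

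In a sarcomere, myosin thick filaments pull on actin thin filaments. Tropomyosin lies along the thin filament and the troponin complex moves it when calcium binds troponin C, while troponin T ties the complex to tropomyosin and troponin I holds contraction off at low calcium. Titin spans from the Z-disc, where thin filaments of neighbouring sarcomeres are crosslinked, to the M-band, where myomesins link thick filaments. Z-disc proteins also take part in sensing stretch, and their genes belong to the muscle programme that changes in cardiac growth.

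Library totals lay between 56827533 and 73194268 counts. Levels are CPM, counts scaled to a common library size, after TMM, an adjustment that assumes most genes do not change. This scaling matters here, because mitochondrially encoded genes took between 30.3% and 55.5% of the counts. Markers of heart muscle were abundant in every library: Myh6, the alpha myosin heavy chain, had 8386 to 16345 CPM. The skeletal fast myosins Myh1, Myh2 and Myh4 stayed at or below 0.178 CPM. Kmo_AngII 3 stood apart in several marker lists. Its 8 atrial markers summed to 1408 CPM against 23.4 to 201 elsewhere, its 7 fibroblast markers to 1941 against 463 to 860.5, and its 5 epicardial markers to 79.0 against 4.07 to 18.4. Ctrl 2 had the next highest atrial sum, 201 CPM. In bulk RNA, fewer cells of a type and less RNA per cell cannot be told apart.

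Levels of different genes are compared per kilobase of the longest coding transcript of GENCODE M21. The adult cardiac isoforms made up nearly all of the troponin, myozenin and myosin binding protein C families in all 9 libraries. The cardiac troponin T Tnnt2 held 99.7% to 99.8% of the troponin T total, and the cardiac troponin I Tnni3 held 99.86% to 99.97% of the troponin I total. Tnnc1, the troponin C of heart and slow muscle, held at least 99.97% of its family. The lowest share in any library was 99.88% of the myozenin total for Myoz2, the cardiac calsarcin, and 98.8% of its family for Mybpc3, the cardiac myosin binding protein C. Other families were more mixed. Tpm1 held 87.2% to 98.8% of the tropomyosin total, and Lmod2 held 80.7% to 88.3% of the leiomodin total beside Lmod3. The median level over the libraries was highest for Tnnt2, at 4926 CPM per kb, followed by Tnni3 with 2566, Tnnc1 with 1571, Tpm1 with 1097 and Tcap with 1002. Titin, whose transcript is the longest at 106824 bases, reached 25.0 CPM per kb. The M-band proteins Myom1 and Myom2 stood almost level, with medians of 73.9 and 72.8 CPM per kb.

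The members differed most between the title letters WA and WC. A fit of their 6 libraries alone was chosen with the wide spread of the KKA libraries known from earlier results of these data. Its p-values are thus not those of a fit fixed before the data were seen. In an edgeR quasi-likelihood fit of those 6 libraries, 18 of 36 members were higher in WA at a Benjamini-Hochberg adjusted p under 0.05 over all 18111 genes tested, which is a call here, and 0 were lower. Over all genes tested the share called was 13.3%, and the share called higher was 8.06%. The median log2 difference was 0.90 over the members and -0.01 over all genes. Every WA library lay above every WC library in 23 of 36 members, against 17.1% of all genes. The reverse held for Myom3 alone, against 3189 of the 18111 genes. By role, 9 of 14 Z-disc members were called, all 3 genes of thin filament length and capping, 2 of 3 M-band members, 2 of 11 thin filament members, 1 of 3 in the group of titin and the myosin binding proteins, and 1 of 2 in the group of Mylk3 and Des. A fit of all 9 libraries, in which the widely spread KKA libraries enter the estimate of the spread, called 0 members and 0% of 19091 genes for the same contrast, with 16 members and 3443 of all genes at an unadjusted p under 0.05. The smallest p there belonged to Mybpc2 (2.11 ± 0.39), Synpo2l (2.34 ± 0.62), Myot (1.43 ± 0.41) and Myoz2 (1.59 ± 0.47), with edgeR adjusted p values of 0.174, 0.224, 0.224 and 0.224. There DESeq2 called 7 members and 505 of all genes, and limma-voom called 0 members. Without Kmo_AngII 1, edgeR called 15 members and 1576 of all genes for this contrast in the remaining 8 libraries.

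The 18 calls depended on single libraries and on the scaling. Without AngII 2 only 7 members were called and without Ctrl 3 only 9, all of them among the 18, while the other 4 fits that leave out 1 of the 6 libraries called 14 to 20. The 7 called in all 6 of those fits were Mybpc2, Myom1, Myoz2, Lmod2, Smpx, Flnc and Synpo2l. Over all genes those fits called 459 without AngII 2, 524 without Ctrl 3 and at most 2980, against 2409 with all 6 libraries. When libraries were scaled by size alone, 2 were called (Mybpc2 and Synpo2l); the median of all genes then shifted to -0.32 and that of the members to 0.53, which is 0.85 relative to all genes. Of all genes called, 1459 were higher and 950 lower in WA with TMM, and 62 were higher and 170 lower with size alone. All 18 kept a positive difference in each of these fits. With the treatment label as a covariate, 17 members and 1946 of all genes were called, and the members' median was 0.72.

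Sums of cell type markers differed between the same libraries. The 8 heart muscle markers, none of them a member, summed to 22380, 18380.4 and 22430.0 CPM in WC and to 31982, 38740.3 and 30599 in WA. The 5 red cell markers summed to 6890.2, 7314 and 2943 CPM in WC and to 489.6, 436 and 116 in WA. The sums did not overlap between the groups in either list. Of the single heart muscle markers, Myh6 and Ryr2 did overlap. Myh6 had 12931, 9389 and 14553 CPM in WC and 14353, 16345 and 13050 in WA. The endothelial sum was lower in WA (684, 669.9 and 822 CPM against 901, 890.3 and 890.8). Of these markers only Pecam1 did not overlap between WA and WC, and Kdr was highest in AngII 3, a WA library (174 CPM). The skeletal muscle list was higher in WA (96.3, 74.3 and 41.3 CPM against 21.4, 18.5 and 16.0), nearly all of it from Myl1, an alkali light chain. The atrial sum was higher in WA (201, 31.2 and 29.3 CPM against 28.9, 28.0 and 25.9), mostly through Ctrl 2. Of the atrial markers Dkk3 alone was higher in WA without overlap, and Bmp10 was lower, at 0 CPM in every WA library. The epicardial sum was lower in WA (8.63, 10.6 and 8.04 CPM against 15.8, 18.4 and 15.8). Of its markers only Wt1 did not overlap. Among WA and WC, Upk3b, Msln and Upk1b were highest in Ctrl 3, a WA library (2.27, 2.41 and 0.747 CPM). Fibroblast, smooth muscle and macrophage sums overlapped between WA and WC. The part of these markers in the members' differences was not tested.

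**Figure D1:**
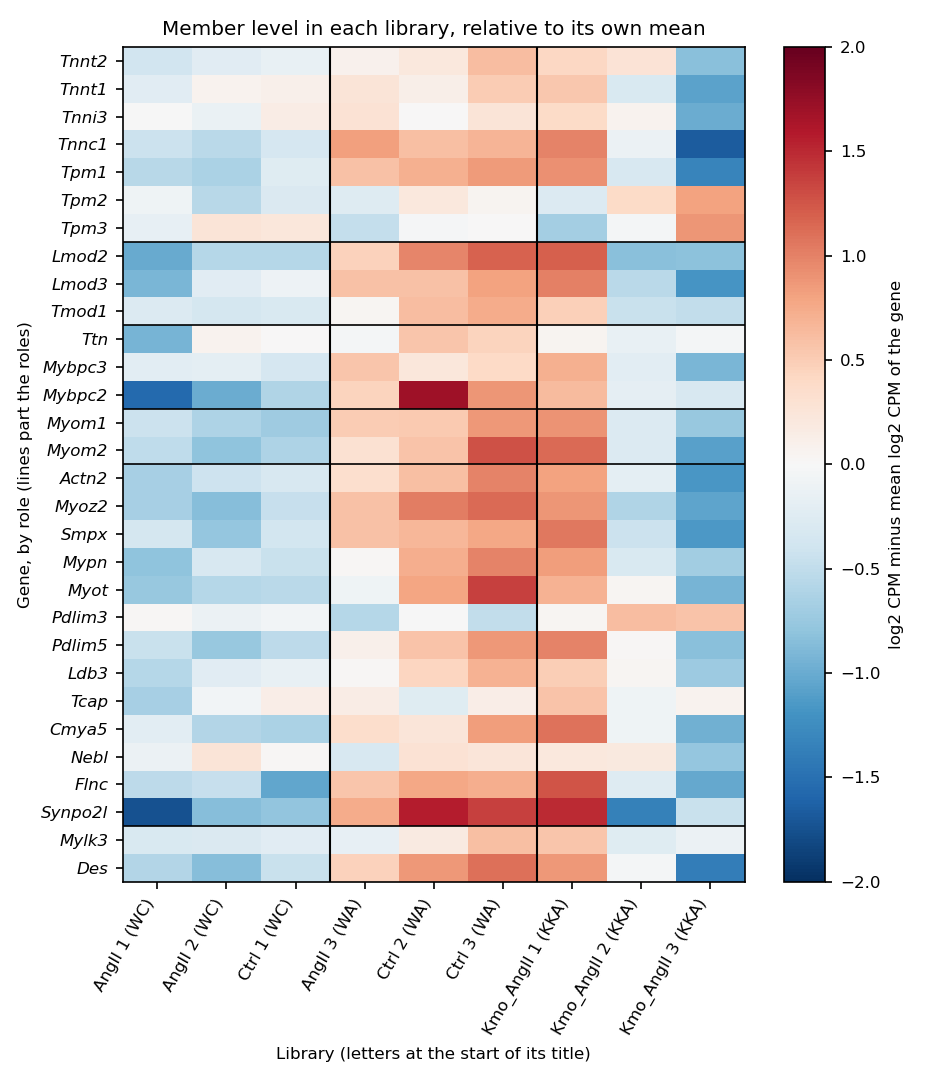
Level of the 30 members with at least 100 counts in every library, as log2 CPM minus the gene's mean over the 9 libraries (colour), by role (rows) and by title letters (columns). Most rows are blue in the 3 WC libraries, red in the 3 WA libraries and in Kmo_AngII 1, and blue in Kmo_AngII 3, while Tpm2, Tpm3 and Pdlim3 run otherwise.

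Within the troponin complex, the calcium sensor differed and the inhibitor was nearly level. Tnnc1 had 969.6, 915 and 850.0 CPM in the WC libraries, 1855, 1959.6 and 2174 in WA and 2439, 1132 and 387 in KKA. The WA levels were about as tight as the WC levels and lay far above them, and the KKA libraries spanned the whole range. Its log2 difference, WA minus WC, was 1.14 ± 0.23 (SE; edgeR adjusted p = 0.0110). The SE is derived from the test and restates it. Tnni3 had 2463, 2221 and 2022 CPM in WC, 2238, 2648 and 2713 in WA and 2888, 2341 and 1117 in KKA, so the groups overlapped, with a log2 difference of 0.19 ± 0.25 (edgeR adjusted p = 0.659). Tnnt2, which anchors the complex, had 5027, 4299.9 and 4752 CPM in WC, 6502, 8539 and 5911 in WA and 7422, 6760.5 and 3142 in KKA. Its WA libraries all lay above its WC libraries, but the difference of 0.59 ± 0.30 was not called (edgeR adjusted p = 0.215).

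Tpm1, the main tropomyosin of heart muscle, was also called. It had 3172, 2567 and 2432 CPM in WC, 6177, 6819 and 5662 in WA and 7128, 3029.7 and 1511 in KKA. Its log2 difference was 1.20 ± 0.28 (edgeR adjusted p = 0.0191), a call kept in 2 of the 6 fits that leave out 1 library. Tpm2 and Tpm3, which slow muscle, smooth muscle and non-muscle cells also use, were not called. Tpm2 had 32.1, 36.9 and 26.8 CPM in WC, 45.6, 40.9 and 33.1 in WA and 32.7, 51.1 and 68.8 in KKA. Tpm3 had 63.6, 48.9 and 65.5 CPM in WC, 53.8, 54.9 and 39.2 in WA and 34.0, 53.2 and 101 in KKA. Both were highest in Kmo_AngII 3, the library where Tpm1 was lowest. There Tpm1 held 87.2% of the tropomyosin total per kb, against 95.3% to 98.8% in the other 8 libraries.

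Ratios of 2 members within a library do not depend on any scaling between libraries. These pairs were chosen after the values were seen, so they are given without a test. The ratio of Tnnc1 to Tnni3, on counts per kb, was 0.498, 0.521 and 0.532 in the WC libraries, 1.05, 0.936 and 1.01 in WA and 1.07, 0.612 and 0.439 in KKA. That of Tpm1 to Tnni3 was 0.406, 0.365 and 0.380 in WC, 0.871, 0.813 and 0.659 in WA and 0.779, 0.408 and 0.427 in KKA. In both ratios Kmo_AngII 1 sat with the WA libraries. By contrast, Tnnt2 to Tnni3 overlapped between the letters, at 1.55, 1.47 and 1.79 in WC and 2.21, 2.45 and 1.66 in WA. The 3 subunits of the troponin complex thus did not stand in the same proportion in all libraries. The ratios of Myom1, Myom2, Actn2 and Mybpc3 to Ttn also overlapped between the letters. That of Myom1 was 2.20 to 5.05 in WC and 3.50 to 5.25 in WA. That of Actn2 was 7.02 to 11.8 in WC and 10.1 to 14.4 in WA. The ratios of Flnc to Nebl, Des to Tcap and Myoz2 to Tcap did not overlap.

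**Figure D2:**
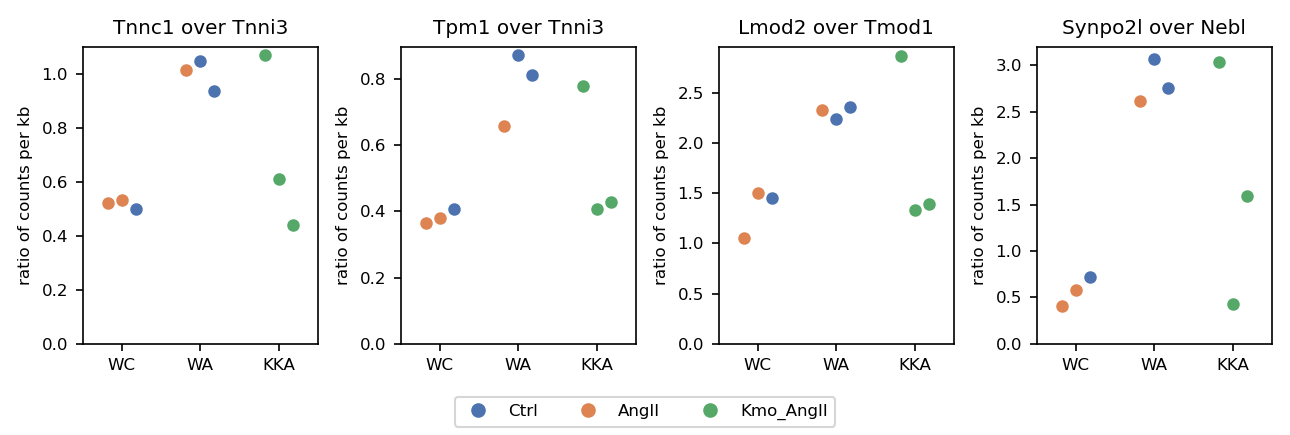
Ratio of 2 members within each library (y axis, counts per kb of transcript) by title letters (x axis), 1 point per library coloured by treatment label. The WC and WA points do not overlap in these 4 ratios, and Kmo_AngII 1 is the KKA point near or above the WA level. The ratios of members to Ttn, not shown here, did overlap.

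The stretch just before the start is shown for 5 called members, Tnnc1 and Tpm1 of the thin filament, Mybpc2 of the thick filament and Synpo2l and Myoz2 of the Z-disc, and for Tnni3, which was not called. The sequences are the 150 bases before the first listed start, 5′ to 3′ on the gene's strand, from RefSeq windows on GRCm38.p6. Capitals mark matches to the M-CAT element, read as CATTCC on either strand, or to the MEF2 consensus on either strand.
Mybpc2, chr7:44524670-44524819, minus strand: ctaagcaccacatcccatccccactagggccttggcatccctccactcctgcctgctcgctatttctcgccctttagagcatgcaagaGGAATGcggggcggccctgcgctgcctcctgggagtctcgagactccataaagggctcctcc
Tnnc1, chr14:31208162-31208311, plus strand: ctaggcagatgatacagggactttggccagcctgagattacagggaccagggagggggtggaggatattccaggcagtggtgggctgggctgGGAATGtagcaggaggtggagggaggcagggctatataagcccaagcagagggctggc
Tpm1, chr9:67049214-67049363, minus strand: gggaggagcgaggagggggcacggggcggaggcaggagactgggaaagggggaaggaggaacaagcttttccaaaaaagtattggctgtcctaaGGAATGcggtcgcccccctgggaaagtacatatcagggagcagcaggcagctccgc
Synpo2l, chr14:20668355-20668504, minus strand: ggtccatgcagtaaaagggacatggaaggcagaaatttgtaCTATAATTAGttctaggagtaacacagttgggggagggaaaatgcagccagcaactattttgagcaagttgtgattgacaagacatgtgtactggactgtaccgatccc
Myoz2, chr3:123034988-123035137, minus strand: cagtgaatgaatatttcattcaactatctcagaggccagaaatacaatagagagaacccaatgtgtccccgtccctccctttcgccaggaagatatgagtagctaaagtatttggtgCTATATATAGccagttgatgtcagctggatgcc
Tnni3, chr7:4522529-4522678, minus strand: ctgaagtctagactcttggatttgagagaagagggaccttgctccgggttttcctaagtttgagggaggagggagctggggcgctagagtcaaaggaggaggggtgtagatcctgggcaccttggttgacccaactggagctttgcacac

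Of the members, 29 were matched by symbol to such windows, 15 called and 14 not, and motifs were looked for in the 250 bases before each start. An M-CAT match, a motif known to bind TEAD factors, was found in 6 of the 15 called members and 4 of the other 14, against 14.4% of 27025 genes. The called ones were Mybpc2, Tnnc1, Tpm1, Mypn, Tmod1 and Flnc, and in Mybpc2, Tnnc1, Tpm1 and Mypn the match began between 62 and 49 bases before the start. The MEF2 consensus was found in 2 of 15 called members (Myoz2 and Synpo2l) and 3 of 14 others (Ttn, Mybpc3 and Myom3), against 3.42% of genes. The CArG consensus, known to bind SRF, was found in Myom1 among the called members and in Ldb3 and Nebl among the others, against 1.62% of genes, and TATAAA on the gene's strand only in Tnnt1 (8.94% of genes). No matches of different motifs overlapped in the members. A match of letters is a description of the sequence, and binding was not measured.

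Titin and cardiac myosin binding protein C, which set the length and the regulation of the thick filament, were not called. Ttn had 2676, 1399 and 2782 CPM in WC, 3916, 3615 and 2601 in WA and 2774, 2400.3 and 2599 in KKA, and its groups overlapped (0.58 ± 0.33 on the log2 scale, edgeR adjusted p = 0.266). Mybpc3 had 1271, 1387 and 1406 CPM in WC, 1887, 2117 and 2373 in WA and 2626, 1389 and 855 in KKA. All 3 WA libraries lay above the WC libraries, with a difference of 0.66 ± 0.24 (edgeR adjusted p = 0.0892). Mybpc2, the fast skeletal isoform, was low but changed by the second largest amount of all members. It had 4.11, 2.13 and 3.14 CPM in WC, 20.4, 11.5 and 8.54 in WA and 9.68, 5.53 and 5.03 in KKA, with 181 to 854 raw counts per library. The log2 difference was 2.12 ± 0.34 (edgeR adjusted p = 0.00530), or 4.36-fold, and the Ctrl 2 value was the highest. Without Ctrl 2 it was 1.70 and still called. Even in Ctrl 2 it made up only 1.23% of the family total per kb.

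In the M-band, Myom1 and Myom2 were called, and Myom3 had a negative difference. Myom1, the common myomesin, had 311, 374 and 329.5 CPM in WC, 724, 926 and 721 in WA and 940.4, 418 and 299 in KKA (log2 difference 1.24 ± 0.21, edgeR adjusted p = 0.00596). Myom2, the isoform of adult heart and fast fibres, had 291, 315 and 255 CPM in WC, 662, 1077 and 554 in WA and 979, 369 and 211 in KKA (1.42 ± 0.27, adjusted p = 0.00807). In both, every WA library and Kmo_AngII 1 stood above every WC library. Myom3, the minor isoform here, was highest in the WC libraries and in Kmo_AngII 2. It had 4.71, 6.71 and 5.66 CPM in WC, 1.91, 3.79 and 3.64 in WA and 3.46, 6.48 and 1.87 in KKA. Every WA library lay below every WC library, but the difference of -0.86 ± 0.29 was not called (edgeR adjusted p = 0.0706). Its share of the myomesin total per kb was 0.75% to 0.93% in WC and 0.13% to 0.27% in WA.

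**Figure D3:**
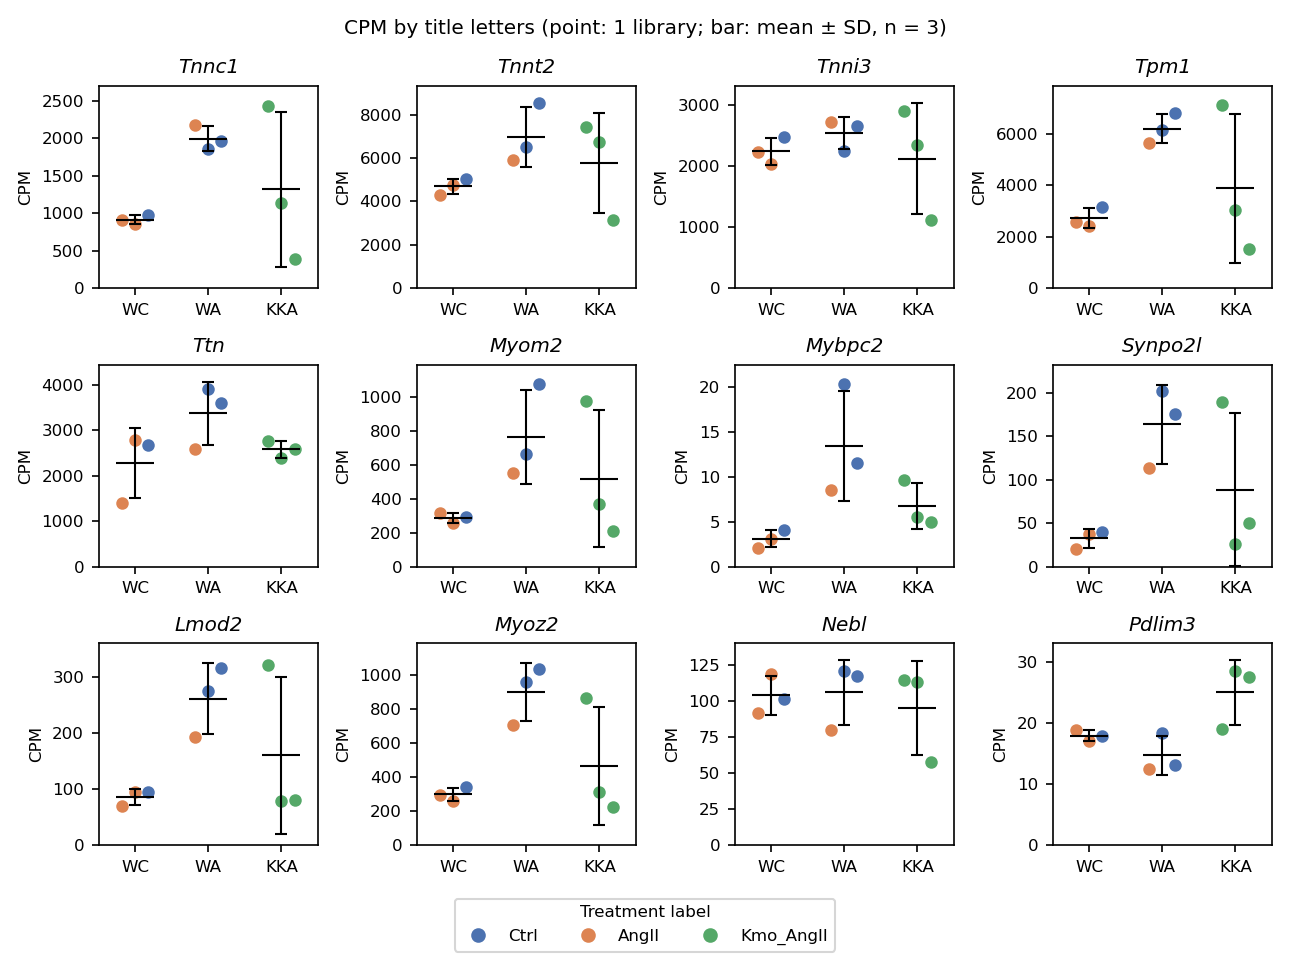
CPM (y axis) of 12 members by title letters (x axis), 1 point per library coloured by treatment label, with mean and SD (n = 3). WA points stand above WC points for Tnnc1, Tpm1, Myom2, Mybpc2, Synpo2l, Lmod2 and Myoz2, the groups overlap for Tnni3, Ttn, Nebl and Pdlim3, and the KKA points are split with Kmo_AngII 1 on top in most panels.

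The Z-disc held the largest single difference. Synpo2l, an actin-associated protein of the Z-disc, had 39.4, 20.2 and 37.7 CPM in WC, 202, 176 and 114 in WA and 189.7, 26.5 and 50.0 in KKA. The lowest WA library stood well above the highest WC library, Kmo_AngII 1 was in the WA range, and Kmo_AngII 2 was in the WC range. The log2 difference was 2.35 ± 0.29 (edgeR adjusted p = 0.00233), or 5.10-fold. Myoz2, which binds calcineurin and alpha-actinin, had 339, 295 and 259.9 CPM in WC, 956, 1033 and 706 in WA and 863, 311 and 225 in KKA (1.60 ± 0.23, adjusted p = 0.00391). The thin filament crosslinker alpha-actinin, Actn2, had 592, 465 and 551 CPM in WC, 1119, 1466 and 931 in WA and 1281, 643 and 329 in KKA (1.14 ± 0.24, adjusted p = 0.0130). For both genes Kmo_AngII 3 was below every other library.

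A further 6 members of the Z-disc and its edge were called. Flnc, the muscle filamin, had 53.0, 76.1 and 79.0 CPM in WC, 186.3, 181 and 159.5 in WA and 260.5, 91.2 and 53.6 in KKA (1.35 ± 0.20, edgeR adjusted p = 0.00405). Smpx, a small protein of striated muscle, had 90.9, 92.1 and 68.7 CPM in WC, 185.8, 201 and 177 in WA and 244, 87.6 and 53.2 in KKA (1.18 ± 0.19, adjusted p = 0.00465). The WA values of these 2 genes were tight and Kmo_AngII 1 exceeded all of them. Myot, or myotilin, had 16.6, 14.2 and 16.2 CPM in WC, 41.7, 62.0 and 22.9 in WA and 39.1, 24.9 and 12.7 in KKA (1.44 ± 0.30, edgeR adjusted p = 0.0142), and its AngII 3 value lay nearest to WC. Mypn, or myopalladin, which links nebulin-type proteins to alpha-actinin, had 36.1, 28.2 and 39.2 CPM in WC, 81.0, 97.7 and 50.2 in WA and 87.5, 39.7 and 30.3 in KKA (1.16 ± 0.24, adjusted p = 0.0115). Pdlim5, a PDZ and LIM domain adaptor, had 128 to 159 CPM in WC and 234 to 394 in WA (1.13 ± 0.23, adjusted p = 0.0105). In Pdlim5 as in Myot the WA libraries were spread wider than the WC libraries without reaching them. The costameric protein Cmya5, or myospryn, had 97.6, 131 and 101 CPM in WC, 179, 271 and 193 in WA and 322, 142 and 77.6 in KKA (0.98 ± 0.22, adjusted p = 0.0159). Of the calls in this paragraph, Myot and Cmya5 were kept in 3 of the 6 fits that leave out 1 library.

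The remaining Z-disc members were not called. Ldb3, or cypher, had 429, 319 and 407 CPM in WC and 639, 769.8 and 481 in WA (0.72 ± 0.24, edgeR adjusted p = 0.0651). Its groups did not overlap, and it was called without AngII 3. Tcap, the titin cap, had 992, 575 and 876 CPM in WC and 767, 991 and 1009 in WA (0.19 ± 0.26, adjusted p = 0.666). Nebl, the cardiac nebulin relative nebulette, had 101, 92.1 and 119 CPM in WC and 121, 117 and 80.0 in WA (0.04 ± 0.21, adjusted p = 0.917). Tcap and Nebl overlapped between the letters, and Nebl varied least of the Z-disc genes, with its highest library 2.09 times its lowest. The ratio of Synpo2l to Nebl on counts per kb was spread widely, at 0.715, 0.403 and 0.583 in WC, 3.06, 2.75 and 2.61 in WA and 3.04, 0.429 and 1.59 in KKA. Pdlim3, an actinin-associated LIM protein, had a negative difference that was not called (-0.27 ± 0.19, edgeR adjusted p = 0.366), with 17.8, 18.8 and 17.0 CPM in WC, 18.4, 13.2 and 12.5 in WA and 18.9, 28.5 and 27.4 in KKA. It was highest in Kmo_AngII 2 and 3.

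All 3 genes that control thin filament length were called. Lmod2, the cardiac leiomodin, which lengthens thin filaments at their pointed ends, had 94.3, 70.0 and 95.1 CPM in WC, 275, 317 and 193 in WA and 322, 78.7 and 79.8 in KKA (1.61 ± 0.23, edgeR adjusted p = 0.00387). Lmod3 had 25.2, 14.3 and 23.2 CPM in WC, 40.8, 47.0 and 40.5 in WA and 54.2, 18.5 and 11.9 in KKA (1.05 ± 0.21, adjusted p = 0.0105). Tmod1, tropomodulin, which caps the same ends and stops growth, had 104, 106 and 101 CPM in WC, 197, 214 and 132.1 in WA and 179.7, 94.4 and 91.5 in KKA (0.82 ± 0.21, adjusted p = 0.0262). The elongating and the capping gene were both higher in WA, the first by more. The ratio of Lmod2 to Tmod1 on counts per kb was 1.45, 1.05 and 1.50 in WC, 2.23, 2.36 and 2.33 in WA and 2.86, 1.33 and 1.39 in KKA, and Kmo_AngII 1 had the highest value. The Tmod1 call was the least stable of the 3, being kept in 2 of the 6 fits that leave out 1 library.

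Des encodes desmin, the intermediate filament that ties Z-discs to each other and to the membrane. It had 778, 709.8 and 591 CPM in WC, 1936, 2279 and 1463 in WA and 1931, 1032 and 406 in KKA, a log2 difference of 1.46 ± 0.26 (edgeR adjusted p = 0.00637). Smooth muscle also expresses desmin, and the 7 smooth muscle markers summed to 253, 255 and 243 CPM in WC and 251, 310.2 and 259 in WA. Their part in the desmin difference was not tested. Mylk3, the cardiac myosin light chain kinase, had 105, 98.5 and 100.2 CPM in WC and 139, 185 and 109.5 in WA, a difference of 0.53 ± 0.21 that was not called (adjusted p = 0.115). Its libraries spanned the narrowest range of all 36 members, with the highest 1.88 times the lowest.

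**Figure D4:**
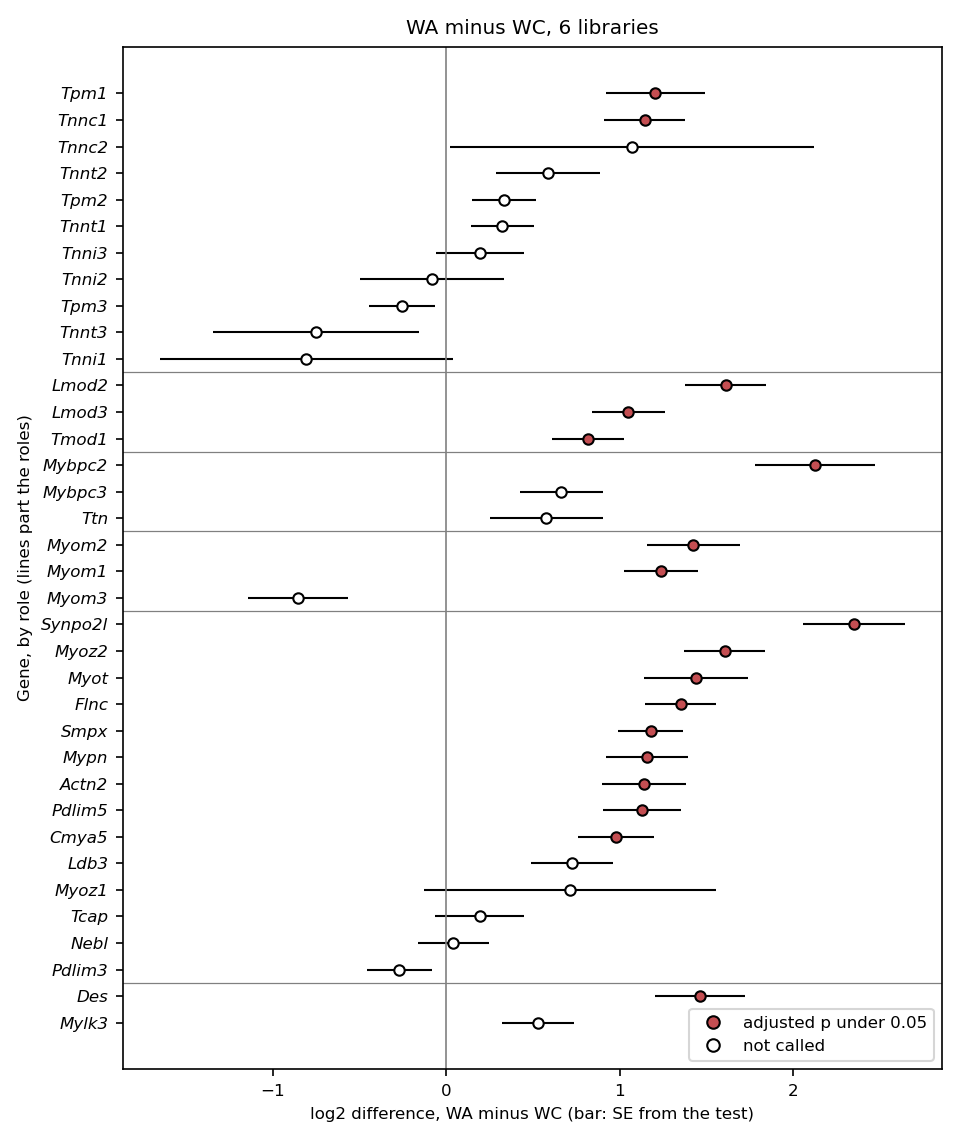
log2 difference WA minus WC (x axis) of each of the 36 members in the fit of 6 libraries, by role (y axis); bars are the SE derived from the test and filled points have an edgeR adjusted p under 0.05. The 18 filled points lie between 0.82 and 2.35, and the 6 members below 0 are all open.

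The 3 KKA libraries did not behave as a group for the 18 called members. Those 18 were picked for being higher in WA than in WC, and the counts in this paragraph were not taken over all genes. Whether they are particular to the members was therefore not tested. In Kmo_AngII 1 all 18 lay above every WC library, and 9 lay above every WA library as well. In Kmo_AngII 2, 17 lay below every WA library and 11 above every WC library. In Kmo_AngII 3 all 18 lay below every WA library and 13 below every WC library too. Over the 36 members, Kmo_AngII 3 was the lowest library in 21 and Kmo_AngII 1 the highest in 13. The heart muscle markers summed to 38413 CPM in Kmo_AngII 1, within the WA range, to 24504 in Kmo_AngII 2, between WC and WA, and to 14051 in Kmo_AngII 3, below both. The red cell sums of all 3 (477, 483 and 339 CPM) lay within the WA range, and the endothelial sums of Kmo_AngII 2 and 3 (806 and 711 CPM) did too, while that of Kmo_AngII 1 (617 CPM) lay below it. What the members' levels owe to the muscle content of each library was not tested.

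With all 9 libraries fitted, KKA minus WA called 0 members and 0% of genes, with 2 members and 1345 of the 19091 genes at an unadjusted p under 0.05. DESeq2 and limma-voom also called 0 members. Pdlim3 had the smallest p, with a difference of 0.77 ± 0.22, and every KKA library lay above every WA library (edgeR adjusted p = 0.649). The same separation held for 1081 of the 19091 genes. Mybpc2 differed by -0.99 ± 0.38, Myoz2 by -0.95 ± 0.46 and Tnni1 by 1.92 ± 0.98 (edgeR adjusted p of 0.683, 0.718 and 0.718). The Tnni1 value was 0.56 and the Myoz2 value -0.61 without Kmo_AngII 3, and the Mybpc2 value was -0.57 without Ctrl 2. The members' median was -0.39, -0.95 without Kmo_AngII 1 and -0.17 without Kmo_AngII 3. The count turned on Kmo_AngII 1. Without it, 14 members were called, 13 lower and 1 higher in KKA, beside 8.66% of 19742 genes. Of these 14, 12 were among the 18 members called for WA minus WC, and the additional ones were Tnnt1 and Pdlim3. The largest were Synpo2l at -2.10 ± 0.39 (edgeR adjusted p = 0.0146), Myoz2 at -1.75 ± 0.30 (0.0127) and Lmod2 at -1.72 ± 0.27 (0.0118). The other 10 lower ones lay between -0.93 for Tnnt1 and -1.49 for Lmod3. Pdlim3 was the member that was higher, at 0.93 ± 0.20 (edgeR adjusted p = 0.0213). These comparisons share the WA libraries with WA minus WC, so their directions are not separate findings.

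KKA minus WC called 0 members and 0% of genes in edgeR, and 0 members in DESeq2 and limma-voom, with 3 members and 671 of the 19091 genes at an unadjusted p under 0.05. Mybpc2 had 1.12 ± 0.38, with every KKA library above every WC library, as 698 of the 19091 genes had. Tpm2 had 0.67 ± 0.27. Synpo2l had 1.45 ± 0.60 and Pdlim3 0.48 ± 0.22, each of the 4 with an edgeR adjusted p of 0.995. The Synpo2l value rested on Kmo_AngII 1, as it was 0.24 without that library, and that of Tpm2 was 0.39 without Kmo_AngII 3. The members' median log2 difference was 0.48, against 0.05 over all genes, and 0.02 without Kmo_AngII 1.

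By treatment label, no comparison called a member. AngII minus Ctrl called 0 of 36 members and 0% of 19091 genes, with 1 member and 1003 genes at an unadjusted p under 0.05, and DESeq2 and limma-voom called 0 members. The direction of the members was negative in 33 of 36, with a median of -0.49 against 0.02 over all genes. That median was -0.75 without Ctrl 1, -0.74 without AngII 3 and -0.32 without Ctrl 3. When libraries were scaled by size alone the members' median became 0.18 and that of all genes 0.67, so the members were still 0.49 below all genes. The smallest p values were those of Myot (-1.18 ± 0.49), Mybpc2 (-1.38 ± 0.62), Mypn (-0.87 ± 0.46) and Tmod1 (-0.60 ± 0.36), each with an edgeR adjusted p of 0.890. The Mybpc2 difference was -0.76 without Ctrl 2 and -2.19 without AngII 3, and without Ctrl 3 those of Myot and Mypn were -0.71 and -0.58. The Tmod1 difference was 0.08 when libraries were scaled by size alone. Of the Ctrl libraries 2 carry the letters WA and of the AngII libraries 1 does, so the 2 groupings are not balanced against each other. With the title letters as a covariate in the 6 libraries, 0 members were called and the members' median was -0.26. For Synpo2l, the Ctrl libraries had 39.4, 202 and 176 CPM and the AngII libraries 20.2, 37.7 and 114. In each label the WA libraries were the high ones. That order was fixed by the choice of Synpo2l, whose WA libraries all lay above its WC libraries.

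Kmo_AngII minus AngII called 0 of 36 members and 0% of genes in edgeR, and 0 members in DESeq2 and limma-voom, with 2 members and 412 of the 19091 genes at an unadjusted p under 0.05. Pdlim3 differed by 0.63 ± 0.24, with every Kmo_AngII library above every AngII library, as 615 of the 19091 genes had. The nearest libraries were Kmo_AngII 1 at 18.9 CPM and AngII 1 at 18.8. With libraries scaled by size alone the groups overlapped, at 21.7 CPM in Kmo_AngII 1 and 25.6 in AngII 1. Tpm2 differed by 0.66 ± 0.29, Tnnt3 by 0.79 ± 0.60 and Mylk3 by 0.36 ± 0.30, and the edgeR adjusted p of all 4 was 0.9998. The members' median was 0.27, and 0.03 over all genes. Its sign turned without Kmo_AngII 1, to -0.23, and it was 0.61 without AngII 3, 0.51 without Kmo_AngII 3, 0.17 without AngII 2 and 0.12 without AngII 1. The Mylk3 difference was 0.07 without Kmo_AngII 1 and that of Tpm2 0.38 without Kmo_AngII 3. When libraries were scaled by size alone, the members' median was -0.01 and that of all genes -0.29. Relative to all genes the members then stood at 0.28.

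Kmo_AngII minus Ctrl likewise called 0 members and 0% of genes, with 2 members and 533 of the 19091 genes at an unadjusted p under 0.05 and 0 called by DESeq2 or limma-voom. Pdlim3 differed by 0.60 ± 0.24 and again did not overlap between the groups. Every Kmo_AngII library lay above every Ctrl library for 788 of the 19091 genes. Tnni1 differed by 2.19 ± 0.97. Tmod1 had -0.50 ± 0.36 and Mybpc2 -0.83 ± 0.61, and the edgeR adjusted p of all 4 was 0.998. The Tnni1 value was 0.83 without Kmo_AngII 3 and the Mybpc2 value -0.21 without Ctrl 2. The Tmod1 value ranged from -0.89 without Kmo_AngII 1 and -0.75 without Ctrl 1 to -0.33 without Kmo_AngII 3 and -0.30 without Ctrl 3. The members' median was -0.26 and became 0.16 when libraries were scaled by size alone, when that of all genes rose from 0.05 to 0.37, so relative to all genes it was -0.31 and -0.21. With TMM it was -0.81 without Kmo_AngII 1, -0.50 without Ctrl 1, -0.15 without Ctrl 3 and -0.01 without Kmo_AngII 3. Pdlim3 was thus the member with the smallest p in both comparisons of the Kmo_AngII libraries, at 18.9, 28.5 and 27.4 CPM there.

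**Figure D5:**
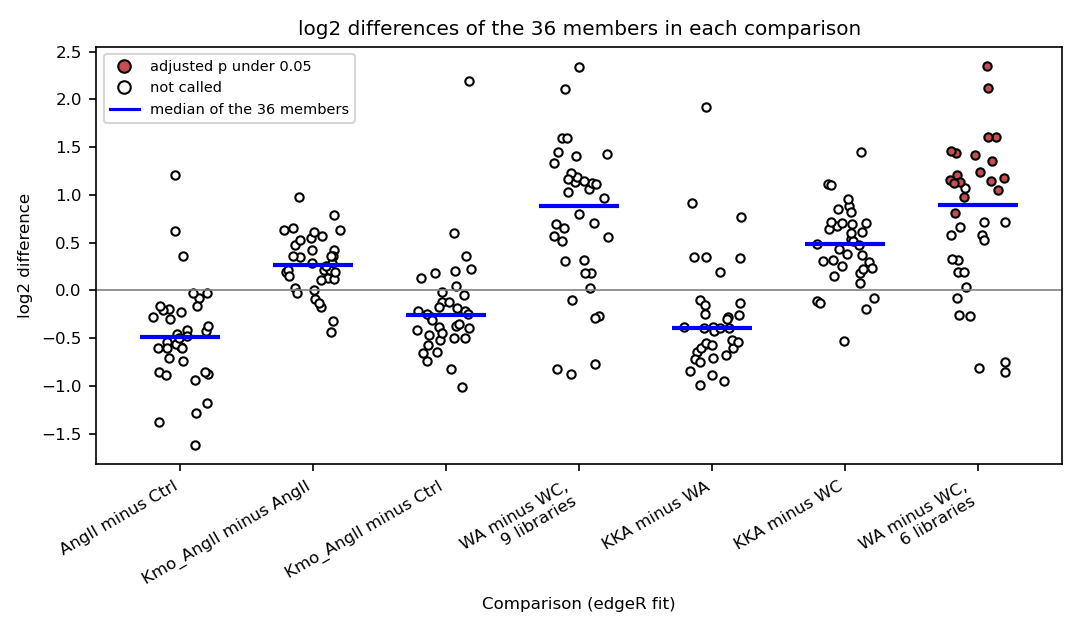
log2 differences (y axis) of the 36 members in each of the 7 comparisons (x axis), 1 point per member, filled where the edgeR adjusted p was under 0.05; the blue line is the members' median. Filled points appear only in WA minus WC with 6 libraries, although the fit of 9 libraries has nearly the same median, 0.88 against 0.90.

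Of the skeletal isoforms of troponin and myozenin, all but Tnnt1 had under 100 counts in every library. Tnnt1, the slow skeletal troponin T, had 250 to 1257 counts, or 4.93 to 15.0 CPM, and its WA libraries lay just above the WC libraries (0.32 ± 0.18, edgeR adjusted p = 0.265). Tnnt3, the fast isoform, had 1.65, 0.706 and 0.505 CPM in WC, 0.835, 0.226 and 0.619 in WA and 0.836, 1.19 and 1.14 in KKA, from 13 to 93 counts. The fast troponin I Tnni2 lay between 0.493 and 1.31 CPM. None of these 3 was called in the 7 comparisons, and Tnnt1 was called lower in KKA than in WA only without Kmo_AngII 1. Tnni1, the slow skeletal troponin I that the fetal heart uses, was highest in Kmo_AngII 3 and low in the other libraries. It had 0.142, 0.224 and 0.401 CPM in WC, 0.167, 0.0521 and 0.210 in WA and 0.346, 0.0762 and 1.24 in KKA. The 1.24 CPM of Kmo_AngII 3 were 63 counts, in the library with the high atrial, fibroblast and epicardial marker sums. The part of those markers in this value was not tested. Tnnc2, the fast troponin C, had 0.248, 0.200 and 0 CPM in WC, 0.358, 0.451 and 0.136 in WA and 0.299, 0.137 and 0.0789 in KKA, at most 26 counts. Myoz1, the fast fibre myozenin, had 0.230, 0.212 and 0.208 CPM in WC, 0.644, 0.0521 and 0.371 in WA and 0.179, 0.412 and 0.217 in KKA, at most 30 counts. At this depth no difference between groups was detectable for either.

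A list of 45 further sarcomere and costamere genes was read beside the members; Myh6, Actc1, Myl2 and Myl3 of this list are also among the heart muscle markers. The list was fixed with earlier results of these data known, so its calls are not separate findings. In WA minus WC with 6 libraries, 8.06% of all genes tested were called higher in WA. Of the list, 44 were tested, 24 were called higher in WA and 0 lower, with a median log2 difference of 0.86. The largest was Acta1, skeletal alpha-actin, at 5.63 ± 0.27 (edgeR adjusted p = 3.15e-06). Ankrd1, a stretch-responsive ankyrin repeat protein, followed with 3.41 ± 0.34 (0.00111), and Actc1, cardiac actin, had 2.31 ± 0.30 (0.00242). Nrap, which helps assemble myofibrils, had 1.86 ± 0.21 (0.00161), and the actin-binding repeat protein Xirp2 had 1.98 ± 0.29 (0.00391). Acta1 and Ankrd1 exceeded every member. In the 6 comparisons fitted in 9 libraries 0 of the 45 were called.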

How the data were processed

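Poly(A) RNA of 9 heart libraries from C57BL/6 mice was sequenced in pairs of reads on an Illumina NovaSeq, per the labels' protocols. The authors deposited whole-number read counts for 55401 Ensembl genes, not scaled for depth or length. The submitters' processing notes name Bowtie 0.12.2, HISAT2 2.0, StringTie 1.3.0 and the build mm8 with no role; which counting step, annotation or strand setting applied is not given in the sources used here, so reads of paralogs and of overlapping or antisense genes may be shared. Symbols were matched for 55141 genes and not for 260. The members, the lists and the fit of 6 libraries were chosen with earlier results of these data known.

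Counts were filtered with filterByExpr, scaled by TMM and tested with edgeR's quasi-likelihood F test (edgeR 4.0.16, R 4.3.3), p-values being adjusted by Benjamini-Hochberg over all genes tested, 19091 in 9 libraries and 18111 in the 6 titled WA or WC. The 3 treatment labels and the 3 sets of title letters each gave 3 comparisons, and WA minus WC was also fitted in 6 libraries, 7 comparisons in all that share libraries. Library totals of 56827533 to 73194268 counts limit precision for members with under 100 counts. The SE was the log2 difference divided by the square root of F. DESeq2 1.42.0, limma-voom (limma 3.58.1), other scalings and filters, a treatment covariate and leaving out each library were tried, and the edgeR fit was tested on simulated data. All 36 members are named with values or ranges. Log2 differences are given for each called member, or for the 4 with the smallest p where fewer than 4 were called, and members whose highest library was at least 4 times the lowest are described library by library. Promoter windows come from RefSeq on GRCm38.p6, a later build than mm8.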

Additional observations from a re-analysis of the deposited data

How the results depend on the processing

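No paired analysis was possible because the labels give no replicate numbers shared between groups. Counts of members called in the treatment comparisons and in KKA minus WC were 0 under every alternative run. For WA minus WC in 9 libraries, 7 members were called with DESeq2, 18 with only those 2 groups in the fit and 17 with the treatment label as a covariate in 6 libraries; in 6 libraries, 2 were called when libraries were scaled by size alone. The Tmod1 difference of AngII minus Ctrl reversed to 0.079 with that scaling.

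Over all genes, DESeq2 called 2 for AngII minus Ctrl, 3 for Kmo_AngII minus AngII, 9 for Kmo_AngII minus Ctrl, 505 for WA minus WC in 9 libraries, 91 for KKA minus WA and 27 for KKA minus WC. Scaling by size alone gave 11 for WA minus WC in 9 libraries and 232 in 6, 1 for KKA minus WA and 7 for KKA minus WC. No low-count filter gave 5, 1 and 4 for WA minus WC in 9 libraries, KKA minus WA and KKA minus WC. Fitting only the 2 groups gave 1 for Kmo_AngII minus Ctrl and 2409 for WA minus WC, and the covariate gave 1946. The cause of these changes was not tested.

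Leaving out 1 library at a time gave 0 to 1 genes called in each treatment comparison, 0 to 1576 for WA minus WC in 9 libraries, 0 to 1709 for KKA minus WA, 0 to 7 for KKA minus WC and 459 to 2980 for WA minus WC in 6 libraries. Members called ranged from 0 to 15, 0 to 14, 0 to 0 and 7 to 20 in those 4 comparisons. Where a group was left with 2 libraries, the spread was shared across groups. Of the 36 members, 6 fell under 100 counts in some library, which limits what can be seen for them.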
